A study of Mus musculus with 8 samples.

Results

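The 10 genes described here encode the surrogate light chain and the constant regions of the immunoglobulins that B cells carry on their surface as they develop. They are the rows of the mRNA table whose symbol is Igll1, Vpreb1, Vpreb2, Vpreb3, Ighm, Ighd, Igkc, Iglc1, Iglc2 or Iglc3, 10 of 22298 genes, and were chosen by name. B-lineage cells of 4 stages had been sorted by fluorescence-activated cell sorting (FACS) from the bone marrow of wild-type female C57BL/6 mice, young adults without any treatment. Pro-B cells were taken as B220+IgM-CD43+, pre-B cells as B220+IgM-CD43-, immature B cells as B220+IgM+CD43- and mature B cells as B220hi IgM+CD43-. The cells of 3 mice were pooled for each stage, and 1 long RNA library per stage was sequenced after removal of rRNA. With 1 library per stage there is no spread between replicates, so no test was run and intervals cover counting error only. No difference has a replicate check within these libraries. The authors also measured selected circRNAs and mRNAs by quantitative PCR in a new cohort of animals. Whether genes or circRNAs described here were among them was not examined. Since the gates used surface IgM, which needs a heavy chain of Ighm and a light chain, the levels of these genes are not independent of the sort.

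A B cell first rearranges its heavy chain gene and pairs the mu heavy chain, whose constant region is encoded by Ighm, with the surrogate light chain. The surrogate light chain is made of lambda 5, encoded by Igll1, and a VpreB protein, encoded by Vpreb1 or Vpreb2, and the complex is the pre-B cell receptor (pre-BCR). A kappa light chain, with the constant region of Igkc, or a lambda light chain, with that of Iglc1, Iglc2 or Iglc3, later takes its place in the B cell receptor (BCR). Ighd lies downstream of Ighm and is reached by alternative splicing of the same long transcript, so that mature B cells carry IgD beside IgM.

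The mRNA counts, estimated by the authors and not all whole, summed to 867920, 240231, 223495 and 849350 from the pro-B to the mature library. Levels are given as counts per 1000000 of that total (CPM), with exact Poisson 95% intervals. Whether both reads of a pair entered these counts was not tested. If they did, the intervals of levels, ratios and shares are too narrow. The mRNA counts made up 23.7% of the mRNA and lncRNA counts together in pro-B cells and 23.5% in mature B cells, against 6.48% in both pre-B and immature B cells. The deposited FPKM values (scaled by transcript length and library) follow the larger total. Relative to CPM they moved the median of all genes by -1.89 on the log2 scale from pro-B to pre-B cells and by 1.92 from immature to mature B cells, and by 0.02 or less in the other comparisons. A gene was called higher or lower where the CPM of a pair of libraries differed at least 2-fold and 1 of them had at least 10 counts. Marker lists had their highest CPM in their own stage for pro-B, immature and mature B cells, with Dntt found only in the pro-B library and Fcer2a only in the mature library. The pre-B list (Rag1, Rag2, Il2ra and Cd2) was higher in pro-B than in pre-B cells, at 1103 against 792 CPM. All 10 genes were listed in the table, and 10 counts or more were reached by 8 of them in pro-B, by 7 in pre-B, by 7 in immature and by 6 in mature B cells.

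The surrogate light chain genes were found almost only in pro-B cells. In pro-B cells Igll1 reached 427 counts, which is 492 CPM (446 to 541), beside 0 counts in all later stages. Vpreb1 had 318.24, 0, 2 and 0 counts from pro-B to mature B cells, where the first is 367 CPM (327 to 409). Vpreb2, the close copy of Vpreb1, was listed at 0 in every library. In the pro-B library Igll1 ranked 67 and Vpreb1 ranked 84 by FPKM among 12829 genes above 0.

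The surrogate light chain genes and Vpreb3 are the members with a promoter window in the RefSeq table (GRCm38.p6), 4 of 10. The windows run from 250 bases before to 50 bases after the annotated start and are printed because Igll1 and Vpreb1 share a pattern over the stages while Vpreb3 does not. Capitals mark E-boxes (CANNTG, read alike on both strands), which E proteins can bind, the octamer ATGCAAAT of Oct factors on either strand, and an EBF core CCCNNGGG. On GRCm38.p6 the windows lie at chr16:16863936-16864235 on the minus strand for Igll1, at chr16:16869206-16869505 on the minus strand for Vpreb1, at chr16:17980315-17980614 on the plus strand for Vpreb2 and at chr10:75948050-75948349 on the plus strand for Vpreb3. The Vpreb2 and Vpreb3 windows lie inside their gene records (chr16:17979445-17981274 and chr10:75943024-75949657). The start used for these windows is therefore not the first base of the gene record.
Igll1: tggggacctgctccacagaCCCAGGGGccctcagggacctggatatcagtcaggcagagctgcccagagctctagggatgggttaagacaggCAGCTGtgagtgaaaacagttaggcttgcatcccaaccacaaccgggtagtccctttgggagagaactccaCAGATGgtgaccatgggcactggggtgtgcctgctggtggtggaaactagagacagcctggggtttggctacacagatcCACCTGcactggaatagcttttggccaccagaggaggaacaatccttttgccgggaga
Vpreb1: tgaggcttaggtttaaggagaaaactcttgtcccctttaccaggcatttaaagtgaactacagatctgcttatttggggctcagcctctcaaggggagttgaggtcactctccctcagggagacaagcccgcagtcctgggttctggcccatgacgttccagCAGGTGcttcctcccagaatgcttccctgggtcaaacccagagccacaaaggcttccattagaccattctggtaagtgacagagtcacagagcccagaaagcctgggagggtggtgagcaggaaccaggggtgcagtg
Vpreb2: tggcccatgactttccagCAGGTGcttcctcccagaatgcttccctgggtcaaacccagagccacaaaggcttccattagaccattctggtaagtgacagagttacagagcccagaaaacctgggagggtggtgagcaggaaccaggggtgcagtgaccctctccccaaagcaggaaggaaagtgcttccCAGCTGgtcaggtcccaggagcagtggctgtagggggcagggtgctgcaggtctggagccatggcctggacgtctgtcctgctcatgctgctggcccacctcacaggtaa
Vpreb3: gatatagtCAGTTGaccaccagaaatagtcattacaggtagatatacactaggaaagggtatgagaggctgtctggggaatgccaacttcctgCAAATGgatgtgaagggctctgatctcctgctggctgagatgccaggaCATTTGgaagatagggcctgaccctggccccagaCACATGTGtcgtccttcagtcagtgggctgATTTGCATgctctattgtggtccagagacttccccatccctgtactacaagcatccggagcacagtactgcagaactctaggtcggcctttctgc

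Of all 32851 promoter windows of this length, 72.3% held an E-box, 1.74% the octamer and 13.7% the EBF core. The Igll1 window held 3 E-boxes and 1 EBF core, and the Vpreb1 and Vpreb2 windows held 1 and 2 E-boxes. The Vpreb3 window held 5 E-boxes, of which the last pair overlap, and 1 octamer, which starts 45 bases before the annotated start. A match of letters is not a binding site. The Vpreb1 and Vpreb2 windows are near-copies when shifted by 144 bases against each other, and 153 of their 156 shared bases (98.1%) were identical. Their transcripts were not compared, and how the authors' counting assigned reads between these copies was not tested, so the count of 0 for Vpreb2 beside 318.24 for Vpreb1 is uncertain. Igll1 (chr16:16860671-16863985) and Vpreb1 (chr16:16868401-16869255) are neighbours separated by 4415 bases, while Vpreb2 (chr16:17979445-17981274) lies 1110 kb away. Top3b, a DNA topoisomerase gene 1.467 kb from Vpreb1, had 73, 4, 7 and 47 counts from pro-B to mature B cells.

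Igll1, Vpreb1 and Vpreb2 together came to 859, 0, 8.95 and 0 CPM from pro-B to mature B cells, with an interval from 798 to 922 for the first. A count of 0 was set to a floor of 3 counts, which is 12.5 CPM in the shallower pre-B library and 3.53 CPM in the mature library. With this floor the sum was 68.8-fold lower in pre-B and 243-fold lower in mature B cells than in pro-B cells. These ratios follow from the floor and are not lower bounds, since the exact 95% intervals begin at 55.8-fold and 197-fold. For Igll1 alone the floor gave 39.4-fold in pre-B and 139-fold in mature B cells, with intervals from 31.9-fold and 113-fold. For Vpreb1 it gave 29.4-fold and 104-fold, with intervals from 23.7-fold and 83.9-fold. In FPKM both genes were likewise at 0 in pre-B and mature B cells. There the floor was converted by the FPKM per count of the pro-B library. The resulting 142-fold for Igll1 in both comparisons therefore rests on pro-B values alone.

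Genes whose profile over the libraries was most like that of a member were found by the Euclidean distance between shares of CPM over the 4 libraries, among 4728 other genes with at least 100 counts. For Igll1, 5 genes had a distance of 0, each with counts in the pro-B library alone. They were Gzma (106 counts), a protease of cytotoxic lymphocytes, Dntt (845), the terminal transferase that adds bases at V(D)J junctions, Arpp21 (139), Erg (151.61) and Mmrn1 (121). For Vpreb1 the nearest were Cacna2d1, 2010300C02Rik and Uhrf1, at distances from 0.0296 to 0.0327. Gzma belongs to a list of 6 genes of T and NK cells, of which 5 were above 0 in the pro-B library, with 205 CPM in sum, while Cd3e was at 0. The sum of this list was 0 for pre-B and immature B cells and 5.89 CPM for mature B cells, and its part in the pro-B values was not tested. A list of 6 myeloid genes summed to 936, 1049, 873 and 790 CPM from pro-B to mature B cells. Of these 6, 5 were above 0 in every library, and Csf1r was at 0. The 4 erythroid genes summed to 246, 197, 59.1 and 125 CPM. The part of such cells in the values of the members and of the listed genes was not tested. In bulk samples fewer cells of a type and less RNA per cell cannot be told apart.

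**Figure D1:**
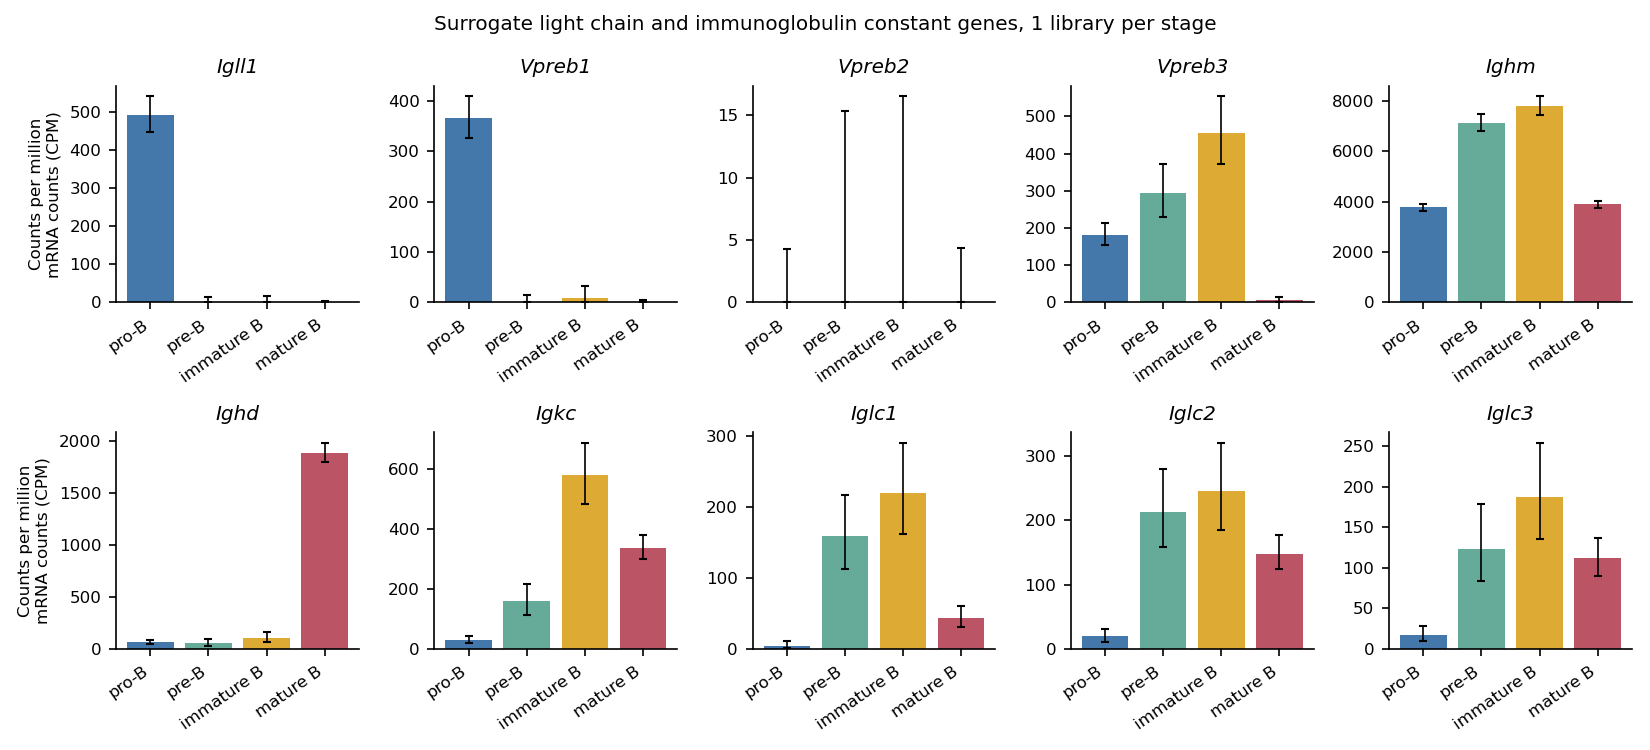
CPM of the 10 genes in the pro-B, pre-B, immature and mature library, with exact Poisson 95% intervals for counting error (1 library per stage). Igll1 and Vpreb1 stand in the pro-B library at 492 and 367 CPM, Ighd in the mature library at 1892 CPM, and the light chain constant genes are lowest in the pro-B library.

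Vpreb3, which encodes a VpreB-like protein that binds mu chains in the endoplasmic reticulum and is not counted with the surrogate light chain, followed another course. It had 158.26, 70.79, 101.81 and 5.87 counts from pro-B to mature B cells, or 182, 295, 456 and 6.91 CPM. The mature library was low, and CPM was highest in the immature library. Vpreb3 was 65.9-fold lower in mature than in immature B cells (28.7 to 180) and 26.4-fold lower than in pro-B cells (11.6 to 71.3), and the first ratio was 17.4-fold with FPKM. From pro-B to pre-B cells its CPM was 1.62-fold higher (1.21 to 2.16), but its FPKM was 2.36-fold lower, so that this direction depended on the scaling. By FPKM rank it stood at 180, 143, 80 and 6411 in the order of development. The nearest profiles were those of Ada, an enzyme of purine breakdown, 9130023H24Rik and Gc, at distances from 0.0642 to 0.0724.

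Ighm had the highest FPKM of the 10 genes in every library. It had 3276.07 counts in pro-B, 1716.84 in pre-B, 1746.75 in immature and 3314.2 in mature B cells, which is 3775, 7147, 7816 and 3902 CPM. Its rank by FPKM was 8 in the first 3 stages and 12 in mature B cells. The pro-B and mature levels differed by less than counting error, at a ratio of 1.03 (0.985 to 1.09), and the pre-B and immature levels by a ratio of 1.09 (1.02 to 1.17). Between these pairs the direction turned with the scaling. Pre-B cells were 1.89-fold above pro-B cells in CPM (1.79 to 2.01) and 2.03-fold below them in FPKM, and mature B cells were 2.003-fold below immature B cells in CPM and 1.88-fold above them in FPKM. The genes with the nearest profiles were Cdc37l1, Eif3g and Tinf2, at distances from 0.00882 to 0.0117.

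Ighd had 59, 13, 24 and 1607 counts from pro-B to mature B cells, or 68.0, 54.1, 107 and 1892 CPM, so that the mature library alone was high. It was 17.6-fold higher in mature than in immature B cells (11.8 to 27.6) and 27.8-fold higher than in pro-B cells (21.5 to 36.7), and 67.5-fold and 28.4-fold higher with FPKM. The earlier stages were closer, since the pre-B to pro-B ratio was 0.796 (0.401 to 1.47) in CPM, with FPKM 4.81-fold lower, and immature B cells were 1.98-fold above pre-B cells, with an interval from 0.971 to 4.24. Taken within a library, which needs no scaling between libraries, Ighd stood at 0.0161, 0.00678, 0.0125 and 0.448 times the FPKM of Ighm. The rank of Ighd by FPKM was 2848, 3418 and 1725 in the first 3 stages and 43 in mature B cells. Rasgef1b, Cd83 and Tpr had the nearest profiles, at distances from 0.0211 to 0.0484, and Cd83, a surface protein of activated and mature B cells, had 35, 2, 19 and 809 counts. Ighm (chr12:113418826-113422730) and Ighd (chr12:113407535-113416324) are 2501 bases apart on GRCm38.p6, and the libraries kept strand.

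The light chain constant genes were lowest in pro-B cells. Igkc had 26.02, 38.13, 129.38 and 285.67 counts from pro-B to mature B cells, or 29.98, 159, 579 and 336 CPM. Pre-B cells had 5.29 times the CPM of pro-B cells (3.12 to 9.06) and immature B cells 3.65 times that of pre-B cells (2.52 to 5.39). With FPKM the first step was 1.39-fold and the second 3.71-fold. Igkc was the only one of the 10 genes called between pre-B and immature B cells. From immature to mature B cells its CPM was 1.72-fold lower and its FPKM 2.196-fold higher, so this direction depended on the scaling. The nearest profiles were those of Tctn1, Dnal1 and Traf5, a TNF receptor adaptor, at distances from 0.0254 to 0.0901.

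Iglc1 had 4, 38, 49 and 37 counts, or 4.61, 158, 219 and 43.6 CPM, Iglc2 had 17, 51, 55 and 126 counts, or 19.6, 212, 246 and 148 CPM, and Iglc3 had 15.29, 29.66, 41.86 and 95.45 counts, or 17.6, 123, 187 and 112 CPM. The pro-B library was low for all 3. Among pre-B cells Iglc1 was 34.3-fold higher (12.4 to 132), Iglc2 10.8-fold higher (6.16 to 20.02) and Iglc3 7.01-fold higher (3.77 to 14.5) than there, and 8.99-fold, 2.71-fold and 1.84-fold higher with FPKM. The pre-B and immature levels of the 3 genes did not differ beyond counting error, with ratios of 1.39 (0.889 to 2.18), 1.16 (0.777 to 1.73) and 1.52 (0.920 to 2.49). Iglc1 alone was called lower in mature than in immature B cells, 5.03-fold in CPM (3.22 to 7.93) and 1.33-fold in FPKM. For Iglc2 and Iglc3 this step was 1.66-fold and 1.67-fold lower in CPM and 2.09-fold and 2.27-fold higher in FPKM. Iglc2 and Iglc3 are known as close copies of each other, and their sequences were not compared here, so the split of reads between them is uncertain. Iglc1 (chr16:19061752-19062071) and Iglc3 (chr16:19065365-19065681) are separated by 3293 bases, and Iglc2 (chr16:19198536-19198852) lies 133 kb from Iglc3. The nearest profiles outside the members were Prpf38a, Nanos1 and Gm10309 for Iglc1, Cdc42bpa, Serpind1 and Slc24a1 for Iglc2, and Cdc42bpa, Atg16l2 and Trim30b for Iglc3, at distances from 0.0278 to 0.0598. Among the members, Iglc2 and Iglc3 were 0.0699 apart.

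Together Igkc, Iglc1, Iglc2 and Iglc3 came to 71.8, 653, 1232 and 641 CPM from pro-B to mature B cells. The sum was 9.09-fold higher in pre-B and 8.92-fold higher in mature B cells than in pro-B cells, and the first ratio was 2.48 with the mRNA and lncRNA total. From immature to mature B cells the sum was lower in CPM, while its FPKM was higher (107 and 205). Within each library, the summed FPKM of the light chain constant genes was 6.33% of the FPKM of Ighm in pro-B, 30.9% in pre-B, 52.9% in immature and 53.7% in mature B cells. That of the surrogate light chain genes was 44.6% in pro-B, 0% in pre-B, 0.247% in immature and 0% in mature B cells. Only in the pro-B library was the surrogate light chain sum above the light chain constant sum, with FPKM sums of 167 and 23.7. By the same measure Vpreb3 stood at 12.5%, 10.7%, 15.3% and 0.468% of Ighm.

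Lambda constant genes held 58.2% (exact binomial 95% interval 44.8% to 70.5%), 75.7% (68.3% to 82.3%), 53.0% (47.0% to 59.1%) and 47.5% (43.2% to 51.7%) of the light chain constant counts from pro-B to mature B cells. The pre-B interval lay above those of immature and mature B cells, and the pro-B interval, which rests on 36.29 lambda and 26.02 kappa counts, overlapped all others. Per length, from FPKM, the shares were 62.0%, 78.1%, 56.9% and 50.3%. The variable segments gave lower lambda shares, since 3 rows of lambda segments held 20.7%, 26.6%, 16.1% and 11.8% of the counts of these rows and 100 rows of kappa segments. Kappa is known as the more frequent light chain isotype of mouse B cells. The kappa segment rows held 181, 134, 332 and 650.12 counts, above those of Igkc in every library (26.02, 38.13, 129.38 and 285.67). How reads were assigned to Igkc was not tested, so its level, and the sums and shares that hold it, are uncertain.

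**Figure D2:**
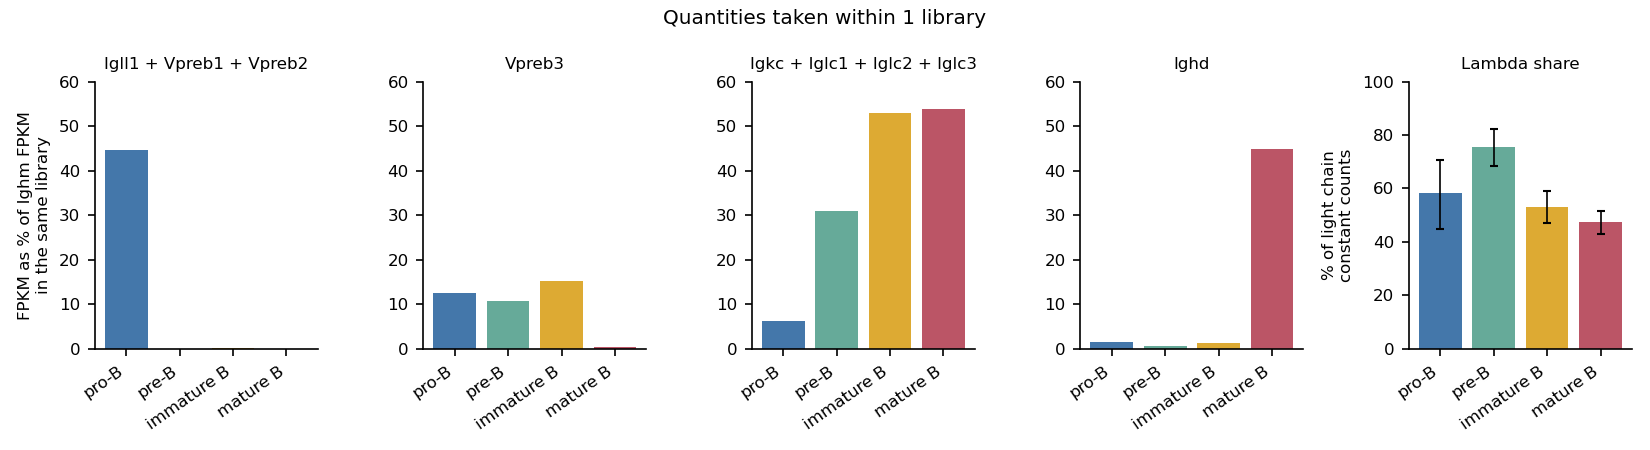
Summed FPKM of the surrogate light chain genes, of Vpreb3, of the light chain constant genes and of Ighd as a percentage of the Ighm FPKM in the same library, and the lambda share of light chain constant counts with exact binomial 95% intervals (1 library per stage). The surrogate light chain sum is at 44.6% in the pro-B library and below 1% elsewhere, the light chain sum goes from 6.33% to 53.7%, and Ighd is at 44.8% in the mature library.

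Counted over the members, from pro-B to pre-B cells 4 of 10 were called higher (Igkc, Iglc1, Iglc2 and Iglc3) and 2 lower (Igll1 and Vpreb1), 3 were not called, and Vpreb2 had too few counts. Of all 9152 genes tested, 14.8% were called higher and 29.2% lower. Between pre-B and immature B cells 1 member was higher and 0 were lower, where 18.9% of 5838 genes were higher and 20.2% lower. Between immature and mature B cells 1 member was higher (Ighd) and 3 were lower (Vpreb3, Ighm and Iglc1), of which Ighm, at a log2 ratio of -1.002, was no longer called with edgeR's TMM factors (-0.91) or DESeq2's size factors (-0.998), where 24.2% of 8363 genes were higher and 18.1% lower. Mature against pro-B cells, the pair of libraries of like depth and like mRNA share, had 5 members higher (Ighd, Igkc, Iglc1, Iglc2 and Iglc3) and 3 lower (Igll1, Vpreb1 and Vpreb3), where 13.2% of 9634 genes were higher and 24.2% lower. In this comparison the ratios were 11.2 for Igkc (7.51 to 17.5), 9.45 for Iglc1 (3.40 to 36.5), 7.57 for Iglc2 (4.55 to 13.4) and 6.38 for Iglc3 (3.73 to 12.0). The comparisons share libraries and are not independent of each other.

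With FPKM the members called higher and lower were 2 and 5 from pro-B to pre-B cells, where 238 and 7470 of all genes were called. From pre-B to immature B cells they were 2 and 0, beside 1286 and 1292 genes. The step from immature to mature B cells gave 4 and 1, beside 6480 and 283 genes, and mature against pro-B cells gave 5 and 3, beside 1447 and 2464 genes. The median log2 ratio of all genes was -0.37, -0.02, 0.19 and -0.19 in CPM and -2.22, 0.01, 2.02 and -0.19 in FPKM over the 4 comparisons.

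**Figure D3:**
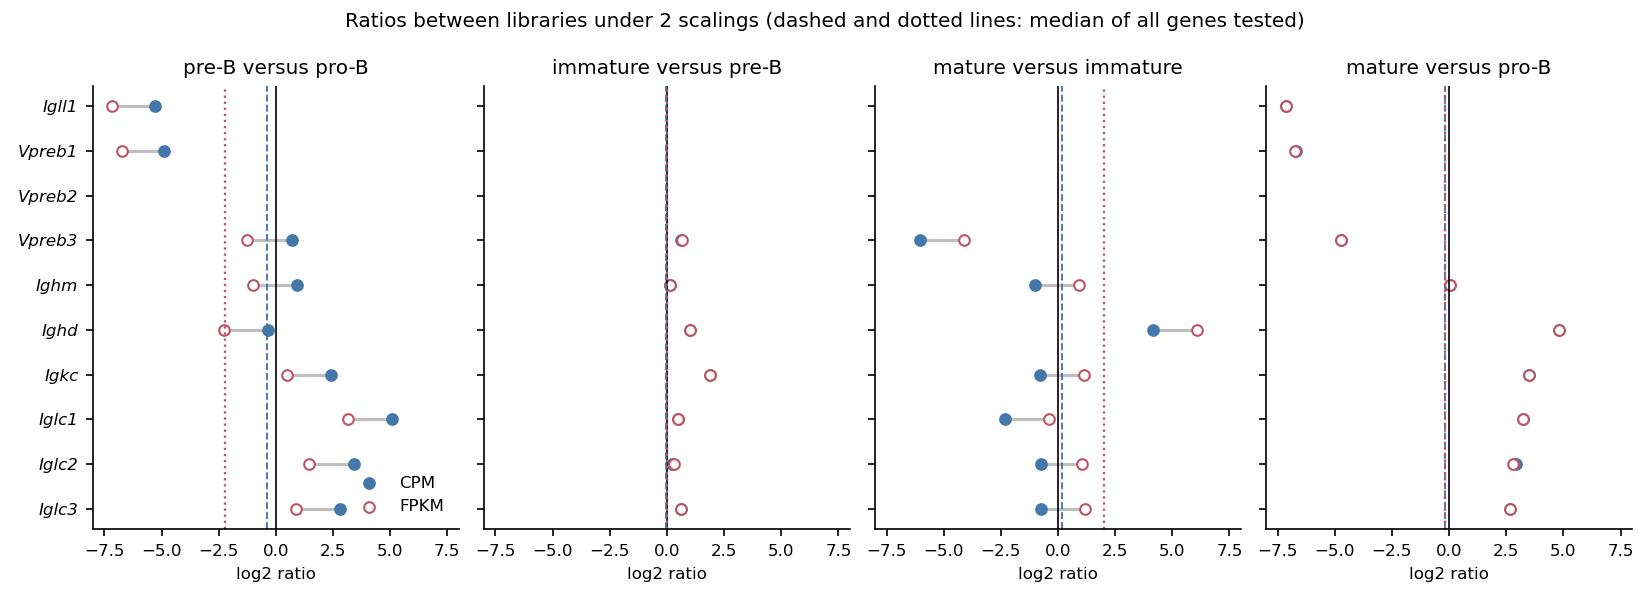
Log2 ratio of each member with enough counts in the 4 comparisons, in CPM (filled) and FPKM (open), with the median of all genes tested in CPM (dashed) and FPKM (dotted). The values differ between the scalings from pro-B to pre-B and from immature to mature B cells, where Ighm has opposite signs, and nearly coincide in the other comparisons. Igll1 and Vpreb1 are drawn at the ratios that follow from the floor on low counts, which are not bounds.

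CircRNAs, which are made by back-splicing and counted from reads across the back-splice, were listed for Ighm and Ighd and for none of the other 8 genes. The circRNA table gives the parental gene by identifier, and its positions lie on the GRCm38.p6 coordinates of the parental gene for 931 of 945 circRNAs. Of 1005 circRNAs 8 belonged to Ighm and 1 to Ighd. Back-spliced reads numbered 1370, 1719, 1751 and 1531 over the 4 libraries, in the order of development, so each value rests on few reads. Of the 14 counts above 0, 10 were even numbers. If both reads of a pair were counted, which was not tested, the intervals are too narrow.

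On the strand of Ighm itself lay 2 circRNAs. The circRNA novel_circ_000719, made of annotated exons (chr12:113422036-113422518, spliced length 372 bases), had 7 reads in immature B cells and 0 in the others. The circRNA novel_circ_000579, an exon-intron circRNA (chr12:113422488-113422876) that reaches 146 bases past the annotated gene, had 0, 2, 10 and 4 reads. Together they had 0, 2, 17 and 4 reads, and their RPM, scaled to these totals, was 8.34-fold higher in immature than in pre-B cells (1.98 to 74.5) and 3.72-fold lower in mature than in immature B cells (1.21 to 15.2). With every read count halved and rounded up, in case both mates of a pair were counted, the interval of the mature to immature ratio ran from 0.0267 to 1.23. Per 1000 linear Ighm counts the reads were 0, 1.16, 9.73 and 1.21, while the linear CPM of pre-B and immature B cells differed by 1.09-fold. The immature library was the high one on both measures.

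The other 6 circRNAs of Ighm lay on the opposite strand. They were novel_circ_000010 (chr12:113421405-113421664), with 1, 9, 2 and 0 reads, novel_circ_000406 (chr12:113421455-113422609), with 6 reads in pre-B cells alone, novel_circ_000212 (chr12:113421180-113422525) and novel_circ_000580 (chr12:113421383-113422195), each with 4 reads in pre-B cells alone, novel_circ_000602 (chr12:113421494-113422525), with 4 reads in pre-B and 2 in mature B cells, and novel_circ_000931 (chr12:113422604-113426805), with 8 reads in mature B cells alone. The first 5 lie within the first 1550 bases of the gene, and novel_circ_000931 spans 4202 bases, of which 4075 lie past its start. Together the 6 had 1, 27, 2 and 10 reads, so that the pre-B library was high. The pre-B RPM was 21.5-fold above that of pro-B cells, with an interval from 3.55 to 881 that rests on 1 pro-B read, and in immature B cells it was 13.8-fold lower than in pre-B cells (3.46 to 119). Ighm was the gene with the most circRNAs on its opposite strand, 6, among 295 genes that had any, and it ranked 258, 3, 10 and 7 among parental genes by back-spliced reads. CircRNAs on the opposite strand of their gene held between 23.6% and 25.7% of all back-spliced reads in the 4 libraries. The 2 strands of Ighm thus had their most reads in neighbouring stages, 27 of 29 on the opposite strand in pre-B cells and 17 of 19 on its own strand in immature B cells.

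The circRNA of Ighd, novel_circ_000204 (chr12:113414435-113416130), was made of annotated exons with a spliced length of 351 bases. It had 5 reads in mature B cells (3266 RPM, 1060 to 7621) and 0 in the other libraries, where linear Ighd had 59, 13 and 24 counts. In mature B cells this was 3.11 reads per 1000 linear counts (1.01 to 7.26). At the linear depth of the earlier stages, the floor of 3 reads stands for 50.8 per 1000 linear counts in pro-B cells, so a lower ratio there was not detectable.

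**Figure D4:**
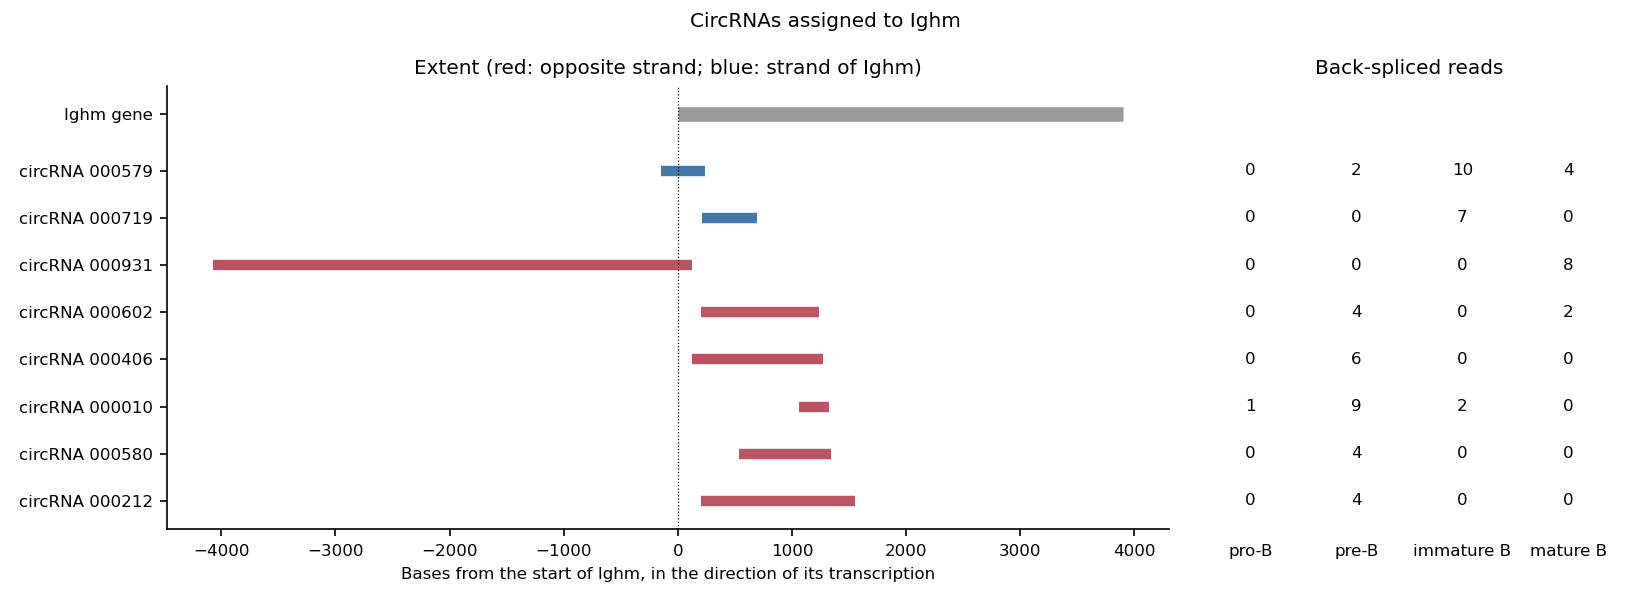
Extent of the 8 circRNAs of Ighm in bases from the start of the gene in its direction of transcription (left; blue, strand of Ighm; red, opposite strand; grey, the gene on GRCm38.p6), with their back-spliced reads in each library (right). The 5 opposite-strand circRNAs inside the gene have 27 of their reads in the pre-B library, and the 2 on the strand of Ighm have 17 in the immature library.

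The proteins that carry the signal of the pre-BCR and BCR were described by a list of 12 genes, all tested in each comparison. From pro-B to pre-B cells 1 was called higher, Cd79b (log2 1.41 in CPM and -0.53 in FPKM), which encodes the signalling chain Ig beta, and 1 lower, Blnk (-1.42 and -3.40), the adaptor of Syk signalling. From pre-B to immature B cells Cd79a, Plcg2 and Bank1 were higher and Lyn and Blnk lower. From immature to mature B cells Lyn, Blk, Blnk and Bank1 were higher and Cd79b was lower in CPM (-1.55) and not in FPKM (0.37). Against pro-B cells, Cd79a, Blk, Plcg2 and Bank1 were higher in mature B cells and Blnk and Pik3ap1 lower. Bank1, a scaffold of BCR signalling, had 43, 10, 48 and 1125 counts, a log2 ratio of 4.74 between mature and pro-B cells. The list's median log2 CPM ratio was -0.21, -0.13, 0.45 and 0.38 over the 4 comparisons. Over all genes tested the median was -0.37, -0.02, 0.19 and -0.19. Of these genes 14.8%, 18.9%, 24.2% and 13.2% were called higher and 29.2%, 20.2%, 18.1% and 24.2% lower. The counts and medians of this list and those below are to be read beside these values.

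The 12 regulators of surrogate and conventional light chain genes had 1 gene called higher and 3 called lower from pro-B to pre-B cells. Of all genes tested there, 14.8% were higher and 29.2% lower. Spi1 was higher in CPM (log2 1.08) and lower in FPKM (-0.86), and Tcf4 (-2.19), an E protein, Irf8 (-1.88) and Myc (-1.73) were lower. Irf8 (1.27) and Myc (1.80) were higher and Tcf3 (-1.55), the gene of E2A, lower in immature than in pre-B cells. In mature B cells Irf4, Foxo1 and Myc were higher and Spib lower than in immature B cells, the last with -2.05 in CPM and 0.06 in FPKM. Ikzf3 and Myc were higher and Tcf3, Tcf4 and Spib lower in mature than in pro-B cells. Pax5 and Ebf1, which switch on B-lineage genes, were called in none of the 4 comparisons in CPM. In FPKM their log2 ratios were -1.95 and -2.69 from pro-B to pre-B cells, where the median of all genes was -2.22. From immature to mature B cells they were 1.88 and 2.29 in FPKM, beside a median of 2.02. The medians of the list were -0.61, -0.11, 0.66 and -0.18 in CPM.

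For Ighd processing the list held Zfp318, which represses a stop of transcription between Ighm and Ighd, and Sppl2a, a protease known for cleaving CD74 rather than for acting on Ighd. Zfp318 had 27.88, 8, 27 and 502.9 counts, so that like Ighd it was high in the mature library alone. Its log2 CPM ratio was 2.29 between mature and immature and 4.20 between mature and pro-B cells, and 4.27 and 5.09 in FPKM. It was also called higher in immature than in pre-B cells (1.86), on 27 against 8 counts, while the FPKM ratio of 0.979 fell short of a call. Sppl2a had 89, 15, 8 and 109 counts and was called in the step from immature to mature B cells alone (1.84).

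Constant genes of switched isotypes and Jchain, which joins IgM and IgA chains in secreted antibody, were low, with 0 to 38 counts for each of 7 genes in each library, and Ighe was at 0 throughout. From pro-B to pre-B cells Ighg1 was called higher (12 counts in each library, log2 1.85 in CPM), which FPKM did not show. Ighg2b and Igha were lower in immature than in pre-B cells, Ighg1 and Ighg2c lower in mature than in immature B cells, and Ighg2b, Ighg2c and Jchain lower in mature than in pro-B cells. The Ighg1 and Ighg2c ratios between mature and immature B cells were -2.83 and -2.19 in CPM and -0.56 and -0.27 in FPKM, and the list's medians were 0.78, -0.32, -2.19 and -1.82 in CPM. The plasma cell markers summed to between 41.2 and 142 CPM, with Tnfrsf17 at 0 in every library, and the part of such cells in these values was not tested.

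Genes of immunoglobulin folding in the endoplasmic reticulum, 11 in all, had 0 higher and 4 lower (Pdia4, Calr, Canx and Dnajb11) of 10 tested in pre-B against pro-B cells. Of all genes tested in this pair, 14.8% were higher and 29.2% lower. Pdia4 and Pdia6, disulfide isomerases, were higher and Dnajb9 lower in immature than in pre-B cells. In mature B cells Dnajb9 and Dnajb11, co-chaperones of the chaperone encoded by Hspa5, were higher than in immature B cells, and Mzb1 and Xbp1 were lower in CPM (log2 -1.19 and -1.40) but not in FPKM (0.73 and 1.09). Mzb1, which assists the assembly of IgM, and Xbp1, a transcription factor of secretory cells, were also lower than in pro-B cells (-1.21 and -1.70). Hspa5 itself, with 650, 129, 144 and 593 counts, was called in none of the comparisons in CPM. Its FPKM log2 ratio was -2.46 from pro-B to pre-B cells and 1.73 from immature to mature B cells. The medians of the list were -0.60, 0.26, 0.16 and -0.27 in CPM. In FPKM the 5 lists had 0 genes higher from pro-B to pre-B cells, and 37 of 41 tested were lower. Of all 9152 genes tested in this pair, 238 were higher and 7470 lower in FPKM.

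**Figure D5:**
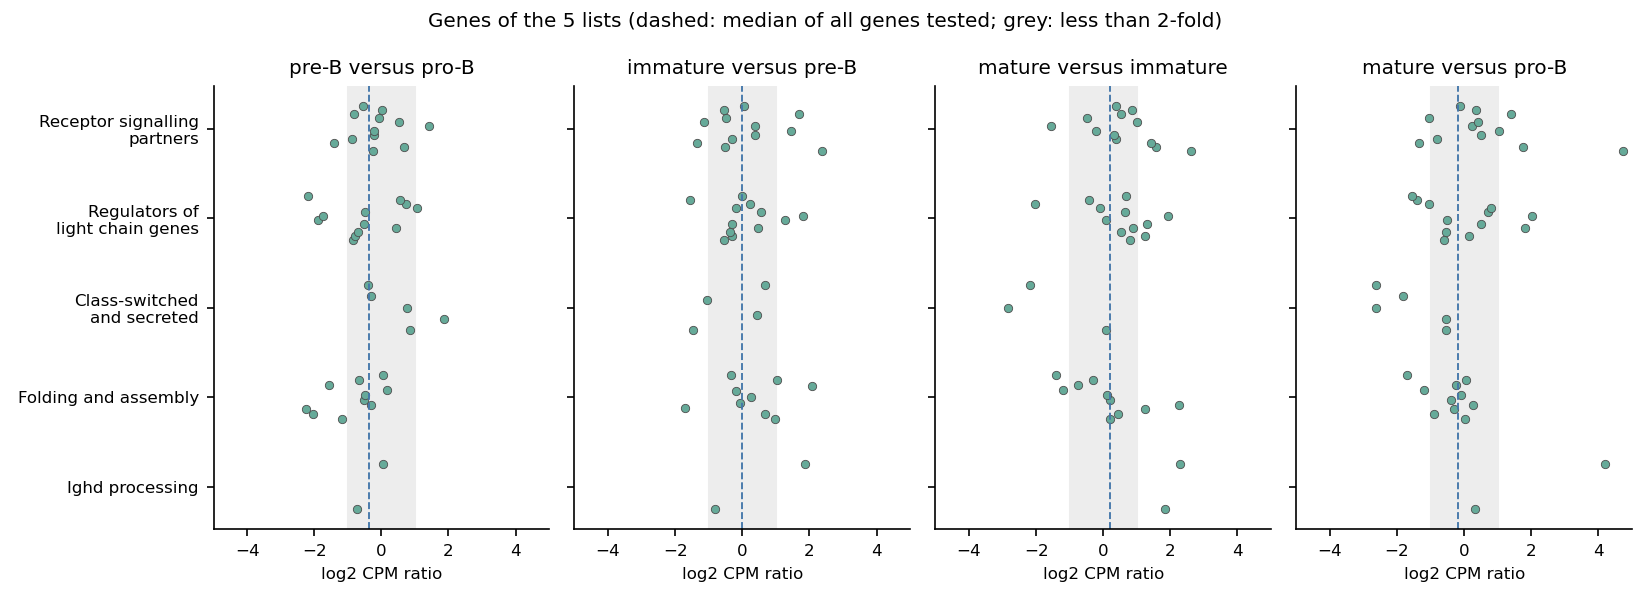
Log2 CPM ratio of each tested gene of the 5 lists in the 4 comparisons, with the median of all genes tested (dashed) and the range below a 2-fold difference (grey). Most genes lie in the grey range, and Bank1 (4.74) and Zfp318 (4.20) are the highest points in mature against pro-B cells.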

How the data were processed

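Long RNA libraries of 4 B-cell stages were used, each 1 library of cells pooled from 3 mice, and the 4 small RNA libraries were not used here. Reads were cleaned by the authors (fastp 0.18.0), freed of rRNA (Bowtie2 2.2.8), mapped with regard to strand (HISAT2) and quantified (StringTie 1.3.4). Estimated counts, as deposited, were taken from the mRNA and lncRNA tables, without normalization, and 15.5% of the mRNA counts above 0 are not whole. FPKM values, also deposited by the authors, are scaled by transcript length and mapped fragments. Deposited counts of circRNAs are back-spliced reads from find_circ, which required at least 2 unique reads in 1 library, and the deposited RPM values divide them by the library's total of such reads. The labels list Bowtie 0.12.2 and mm9 among the submitters' processing notes, while the circRNA positions lie on GRCm38.p6 genes, so positions of the circRNAs are printed as in the table and those of genes as in RefSeq for GRCm38.p6.

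CPM was computed on the column total of mRNA counts, which ranged from 223495 to 867920. Genes were compared where 1 of the 2 libraries had at least 10 counts, and called at a log2 ratio of 1 or more in size, with counts under 3 set to 3. Levels carry exact Poisson, ratios exact conditional and shares exact binomial (Clopper-Pearson) 95% intervals. They cover counting error only, since each stage has 1 library. No molecular identifiers are described, so a molecule may have been counted more than 1 time, and the intervals may be too narrow. Samples were grouped by their labels. The members, the gene lists and the alternatives were chosen with earlier results of these data known. Named are all members, every circRNA of Ighm and Ighd, genes of the lists that were called or counted in a group of 5 or fewer, and the 3 nearest profiles of each member with at least 100 counts. Hspa5, Pax5, Ebf1, Top3b and the ties with Igll1 were named after their values were seen. Alternatives were FPKM, edgeR's TMM factors, DESeq2's size factors, the total with lncRNA counts, other filters and a 4-fold threshold. Scripts ran under Python 3.11.15 (scipy 1.17.1, pandas 2.3.3, numpy 2.4.6, matplotlib 3.10.9), and the factors came from edgeR 4.0.16 and DESeq2 1.42.0 in R 4.3.3.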

Additional observations from a re-analysis of the deposited data

How the results depend on the processing

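The choice of total changed several calls between the pre-B or immature library and the others, but not those of Igll1, Vpreb1, Iglc1 and Iglc2 from pro-B to pre-B cells or of Vpreb3 and Ighd from immature to mature B cells. From pro-B to pre-B cells, 2 members were called higher and 5 lower with FPKM, and 2 higher and 4 lower with the mRNA and lncRNA total, against 4 and 2 with CPM. Of all 9152 genes tested, 238 were higher and 7470 lower with FPKM, and 214 and 7644 with that total, against 1359 and 2669 with CPM. From immature to mature B cells, both alternatives gave 4 higher and 1 lower, against 1 and 3, and Ighm turned from -1.002 to 0.91 with FPKM and 0.86 with the mRNA and lncRNA total. Of all 8363 genes tested, 2027 were higher and 1514 lower with CPM, 6480 and 283 with FPKM, and 6669 and 271 with the mRNA and lncRNA total. With that total the log2 ratio of the light chain constant sum moved from 3.18 to 1.31 between pro-B and pre-B cells and from -0.94 to 0.92 between immature and mature B cells. From pre-B to immature B cells, 2 members were called higher with FPKM or edgeR's TMM factors and 0 at a 4-fold threshold, against 1. Of all 5838 genes tested, 1286, 1143 and 354 were higher in these settings, against 1104. With DESeq2's size factors Ighm was called higher from pro-B to pre-B cells (log2 1.0996, members higher 5) and its call from immature to mature B cells was lost (-0.998, members lower 2), as with TMM factors (-0.91). Of all genes, 1621 of 9152 were higher in the first of these steps and 1508 of 8363 lower in the second with the size factors. In mature against pro-B cells no count of members moved by over 1.5 times under any alternative run. The Ighd to Ighm ratio of mature B cells was 0.485 from counts and 0.448 from FPKM. Scaled to mRNA counts, the ratio of mature to immature B cells for circRNAs on the strand of Ighm was 0.0619, against 0.269. On the opposite strand the pre-B to pro-B ratio was 97.5, against 21.5, and the mature to immature ratio 1.32 (0.280 to 12.3), against 5.72 (1.22 to 53.7), whose interval with the reads halved was 0.640 to 270.5. Calls of single genes with 10 to 40 counts rest on little depth. No paired analysis was possible because each stage has 1 library. For the same reason no library could be left out within a stage.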

Other observations

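The 3 rows of lambda variable segments did not share one course. Iglv1 had 0, 23.39, 17.46 and 2.15 counts from pro-B to mature B cells, Iglv2 had 20, 14, 17.88 and 20, and Iglv3 had 27.36, 11.14, 28.4 and 64.6. Iglv1 and Iglc1, which is one of the constant genes that Iglv1 is joined to, were both at their lowest CPM in pro-B cells, at 0 and 4.61, and both lower in mature than in immature B cells, at 2.53 against 78.1 and 43.6 against 219. In pro-B cells Iglv2 and Iglv3 stood at 23.0 and 31.5 CPM.

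Within each library, the FPKM of Cd79b, the gene of the Ig beta chain that pairs with Ig alpha beside the receptor, was 27.9%, 39.3%, 47.3% and 32.5% of that of Ighm from pro-B to mature B cells. Cd79a, the gene of Ig alpha, stood at 8.41%, 3.88%, 9.78% and 17.1%, so the 2 partner chains were unequal by this measure in every library, with Cd79b above Cd79a.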
